A study of Daphnia magna with 84 samples.

Results

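The highest dietary dose of a coal ash mixture was compared with its control at the earliest sampling day in the water flea Daphnia magna. The comparison rests on 6 of the 84 single-animal RNA-seq libraries of the study: 3 animals at 4 nM Hg/L and 3 animals at concentration 0, all taken at day 6. They were chosen by the concentration and day in their labels. All animals ate the green alga C. reinhardtii, which was kept in the coal ash mixture for 2 h before it was fed. The dose is named by mercury content alone, although the mixture carries other constituents of coal ash, and the control animals also bear the treatment label coal ash, at concentration 0. The labels give the day of sampling but no age, clone or sex. They do not say whether animals of 1 group shared a culture vessel, so the spread between animals may also hold differences between vessels. The other day 6 animals, 15 at the concentrations from 0.015 to 1 nM Hg/L, and the animals at 4 and 0 nM Hg/L at days 10 and 17, 3 in each group, serve as references.

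Daphnia magna is a freshwater crustacean that filters algae from the water, and food is a main route by which metals reach it. Coal ash is the residue of coal combustion and carries mercury, selenium, arsenic and other trace elements. Young females grow, moult and mature within days, so the RNA of a whole animal mixes gut, fat cells, carapace epidermis, muscle, nervous tissue and ovary, and fewer cells of a type cannot be told apart from less RNA per cell. The deposited table gives no gene names, and of its 27350 gene models 0 could be found by ID in the reference table of genes. The text names each model by its ID and its place on a scaffold or contig, and nothing is stated of what it encodes. Tissue markers could not be checked for the same reason, and no sequence is shown.

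Most counts of every library fell in 5 gene models. They are APZ42_024615 (scaffold01685, 306 to 1983, 5 exons), its neighbour APZ42_024616 (scaffold01685, 1997 to 8445, 2 exons), APZ42_004030 (contig22920, 446 to 963, 3 exons), and the single-exon models APZ42_003885 (contig22202, 194 to 730) and APZ42_003886 (contig22203, 1 to 204). Over the 84 libraries the models outside these 5 held 8.14% of counts. That share is the depth on which every other model was measured, and the 3 exposed animals differed widely in it. Of all their counts, exposed replicate 1 had 3.51% outside the 5 models, replicate 2 had 2.24% and replicate 3 had 9.62%. The controls had 9.99%, 11.2% and 13.5%. All 3 exposed animals lay below all 3 controls, but replicate 3 lay just below the lowest control, whereas replicates 1 and 2 stood far apart from it and from the controls. With the 3 most abundant models left out in place of 5 the groups overlapped, at 32.98%, 26.8% and 36.4% against 32.0%, 34.1% and 37.1%, and with 10 left out replicate 3 and control replicate 1 both had 7.84%. Wilson 95% intervals, which cover counting error only, were narrow: 3.50% to 3.52%, 2.24% to 2.25% and 9.60% to 9.63% in exposed replicates 1 to 3.

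The mean share outside the 5 models was 5.12% ± 3.94 (SD, n = 3) at 4 nM Hg/L and 11.6% ± 1.78 (SD, n = 3) in the controls, a difference of -6.44 percentage points (exact permutation test, two-sided, p = 0.1, the smallest that 3 against 3 animals allow). Against all other 18 day 6 animals, which averaged 9.55% ± 2.09 (SD, n = 18) and ranged from 3.97% to 13.5%, the exposed mean differed by -4.43 percentage points (exact permutation test, two-sided, p = 0.0301, adjusted p = 0.0361 over the 6 shares tested). Replicates 1 and 2 lay below all 18, and replicate 3 lay at about their mean. With replicates 1 and 2 left out, replicate 3 alone differed from the control mean by -1.95 percentage points, with no test. Without replicate 3 the difference was -8.69 percentage points. With the 3 most abundant models left out in place of 5 it was -2.32 points (exact permutation test, two-sided, p = 0.6), and with 10 left out -5.80 points (p = 0.2 by the same exact test). Of the 84 libraries of the study, 8 had a lower share than replicate 1, 4 a lower share than replicate 2 and 60 a lower share than replicate 3.

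Between these extremes the day 6 means followed the concentrations in order, although neighbouring groups overlapped. The share was 10.2% ± 2.0 at 0.015, 9.96% ± 1.62 at 0.06, 9.12% ± 1.66 at 0.12, 8.91% ± 0.979 at 0.25 and 7.53% ± 3.08 at 1 nM Hg/L (SD, n = 3 each). The low mean at 1 nM Hg/L came from its replicate 3 at 3.97%, while the other two animals of that group had 9.47% and 9.14%. The order of the means was not tested. At the later days the groups at 4 nM Hg/L and 0 overlapped or lay closer: 7.84% ± 3.60 and 7.88% ± 1.79 at day 10, and 6.95% ± 1.06 and 8.45% ± 0.656 at day 17 (SD, n = 3 each).

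**Figure D1:**
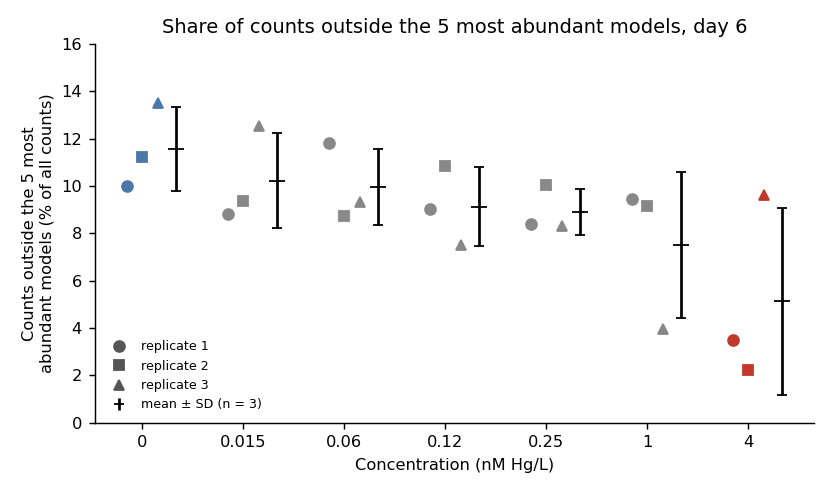
Share of all counts outside the 5 most abundant gene models (y axis, percent) in each of the 21 day 6 animals, by concentration (x axis, nM Hg/L); symbols are animals, and the bars beside them are the mean ± SD (n = 3). Exposed replicates 1 and 2 at 4 nM Hg/L lie at 3.51% and 2.24%, replicate 3 at 9.62% is near the controls, and replicate 3 at 1 nM Hg/L lies at 3.97%.

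In absolute counts, 760586, 465099 and 1940755 reads of exposed replicates 1 to 3 fell outside the 5 models, against 2198766, 2140041 and 2596374 in the controls. Total counts of the same 6 libraries ranged only from 19097292 to 22012320. The libraries thus had like totals of counts in gene models. Depth for the remaining models was far lower in exposed replicates 1 and 2, while replicate 3 was near the controls. A level of 3 counts corresponded to 0.538, 1.17 and 0.0903 CPM in exposed replicates 1 to 3 and to between 0.0754 and 0.0993 CPM in the controls (CPM, counts relative to the TMM-scaled library size, whose scaling factor is set by the bulk of models). The part of this difference in the results below was not tested on its own; values from thinned libraries and from a fit with the share as a covariate stand beside the counts of calls.

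The composition among the 5 models also differed, and in opposite directions. APZ42_024615 held 14.8%, 18.8% and 25.6% of all counts in exposed replicates 1 to 3 and 34.3%, 32.3% and 31.7% in the controls. The exposed animals all lay below the controls, replicate 3 in between the others and the controls. Its mean was 19.7% ± 5.46 (SD, n = 3) at 4 nM Hg/L, lower than in the other 18 day 6 animals, which averaged 32.6% ± 3.46 (exact permutation test, two-sided, p = 0.0015, adjusted p = 0.00902). APZ42_004030 went the other way, with 29.3%, 33.4% and 17.8% in the exposed animals and 16.1%, 13.6% and 15.1% in the controls. Its mean of 26.8% ± 8.06 (SD, n = 3) was higher than the 15.6% ± 1.83 of the other 18 animals (exact permutation test, two-sided, p = 0.00301, adjusted p = 0.00902). Here replicates 1 and 2 were far above every control and replicate 3 only slightly.

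The single-exon models shifted less. APZ42_003885 held 13.3%, 10.98% and 9.73% in the exposed animals and 7.68%, 7.39% and 8.65% in the controls, with a mean 2.54 percentage points above the other 18 (exact permutation test, two-sided, p = 0.015, adjusted p = 0.0248). APZ42_003886 held 23.0%, 21.005% and 20.2% against 17.6%, 20.1% and 16.05%, with a mean 3.11 points above the other 18 (exact permutation test, two-sided, p = 0.0165, adjusted p = 0.0248). For both models the exposed animals lay above all controls, for APZ42_003886 by little. APZ42_024616, the neighbour of APZ42_024615, overlapped between groups, at 16.2%, 13.6% and 17.0% against 14.3%, 15.5% and 14.98% (exact permutation test against the other 18, two-sided, p = 0.371). For the direct comparison of 3 with 3 animals the exact two-sided p was 0.1 for each of the other 4 models and 0.5 for this one. The 6 shares add up to 100%, so these tests are not independent. The controls themselves, set against the other 18 animals in the same way, gave an unadjusted p of 0.0361 for the share outside the 5 models (exact permutation test, two-sided, adjusted p = 0.217).

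**Figure D2:**
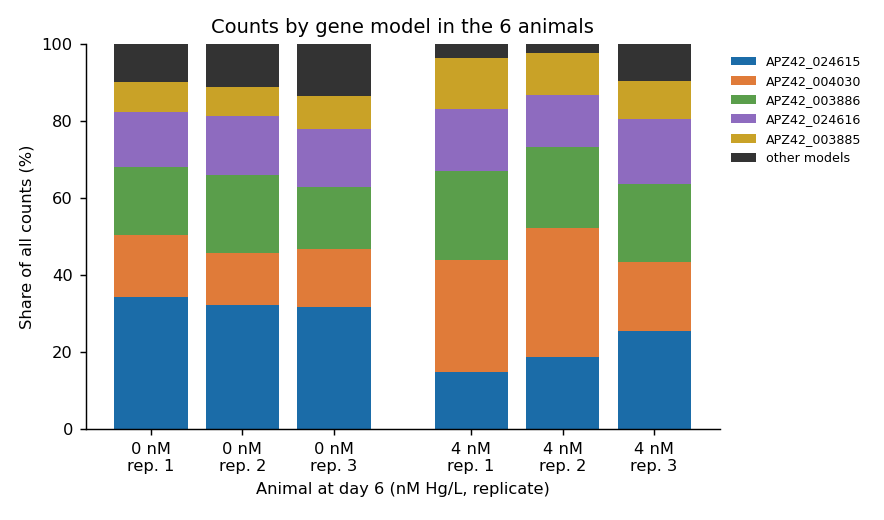
Stacked shares of all counts (y axis, percent) taken by the 5 most abundant gene models and by all other models in each of the 6 animals (x axis, concentration in nM Hg/L and replicate). APZ42_024615 is narrower and APZ42_004030 wider in exposed replicates 1 and 2 than in the controls, and the segment of other models shrinks to 3.51% and 2.24%.

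Within the counts outside the 5 models, a few models again took more in replicates 1 and 2. APZ42_016403 (scaffold00626, 462302 to 470440, 5 exons), singled out after its values were seen, held 27.4%, 39.6% and 9.32% of these counts in exposed replicates 1 to 3 and 4.21%, 5.10% and 4.75% in the controls (exact permutation test, two-sided, p = 0.1). All exposed animals lay above all controls, and the 1 nM Hg/L animal with the low share had 22.8%. The 10 most abundant models of each animal outside the 5 together held 56.6%, 68.8% and 27.8% in the exposed animals and 32.7%, 30.3% and 26.9% in the controls, where replicate 3 fell inside the control range. Single-exon models held 24.1% ± 5.99 of the outside counts at 4 nM Hg/L and 20.8% ± 4.19 in the controls, and models on contigs 25.8% ± 6.26 and 27.1% ± 3.02 (SD, n = 3 each), both overlapping (exact permutation test, two-sided, p = 0.5 and 0.9). IDs that begin with ENSRNA held 0.00637% ± 0.00482 and 0.00566% ± 0.00166 (p = 0.9 by the same exact test).

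Fewer gene models were seen in exposed replicates 1 and 2 also when the total outside the 5 models was made equal. When every library was brought by expectation to 465099 counts outside the 5 models, the lowest depth of the 6, 10243, 8824 and 13176 models had at least 1 count in exposed replicates 1 to 3 and 12396, 12787 and 12819 in the controls. Replicates 1 and 2 were below, and replicate 3 above, all controls, so the groups overlapped, with a mean difference of -1920 models (exact permutation test, two-sided, p = 0.4). Depth was not made equal for each remaining model, since 10 models held most of these counts in replicates 1 and 2; with the 10 most abundant models of the study left out and 235446 counts drawn, the difference was -1229 (p = 0.4 by the same exact test). Replicate 3 alone stood 509 models above the control mean. Without thinning, 11409, 8829 and 16392 models had a count, against 15879, 16218 and 16671.

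The same split between animals showed in whole profiles. Over the 1564 models that averaged at least 5 CPM in the 6 libraries, the median absolute log2 difference between a pair of controls was 0.20 to 0.30. It was 0.56 to 0.67 from exposed replicate 1 to the controls, 0.80 to 0.90 from replicate 2 and 0.29 to 0.44 from replicate 3. Replicates 1 and 2 differed from each other by 0.42, and replicate 3 from them by 0.54 and 0.74. Replicate 3 was thus nearer to each control than to either animal of its own group. Depth was not made equal here, so counting error adds more to the distances from replicates 1 and 2. By how much was not tested. Their TMM-scaled library sizes were 5577050 and 2556000, against 33239700 in replicate 3 and 30200200 to 39795400 in the controls.

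Across all models tested, 191 of 12685 (1.51%) differed between 4 nM Hg/L and 0 at day 6 by edgeR's quasi-likelihood test at a Benjamini-Hochberg adjusted p below 0.05, fitted on all 84 libraries. Of these, 30 (0.236% of those tested) were lower and all others (1.27%) higher at 4 nM Hg/L. The higher models changed by 0.93 to 6.75 on the log2 scale, with a median of 2.31, and 99 of them by at least 2. The lower models changed by -3.70 to -0.72, with a median of -1.67, and 11 of them by -2 or further. These changes stand against a median of -0.18 over all tested models. With DESeq2 size factors in place of TMM scaling 191 were higher and 19 lower, at a median of -0.15 over all models.

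These calls depended on single animals of both groups and on the other libraries of the study. Without replicate 1, 73 models were called and without replicate 2, 15. Without replicate 3, 1103 were called, among them 189 of the 191, and the majority turned: 426 were higher and 677 lower. With replicate 3 as the only exposed animal, assumed to vary like the other groups, edgeR's quasi-likelihood test called 0 models at an adjusted p below 0.05, and 265 had an unadjusted p below 0.05. Without control replicate 1, 2 or 3, 43, 27 and 31 models were called. A fit of only the 6 libraries called 1 model, which was not among the 191, and 1341 had an unadjusted p below 0.05. When the log2 share outside the 5 models entered the fit as a covariate, 1 model was called. That share was itself lower in every exposed animal than in every control, so the fit cannot fully separate it from the dose. When the 6 libraries were thinned to the same total outside the 5 models, 230 were called, 159 higher and 71 lower. Thinning did not make depth equal for each remaining model. APZ42_016403 alone held 39.6% of the outside counts in exposed replicate 2 and 4.21% to 5.10% in the controls.

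Each animal's level in the called models was set against the control mean on the log2(CPM + 0.5) scale, as a description, since the calls used these animals. For the higher models the median was 2.01 in exposed replicate 1, 2.54 in replicate 2 and 0.50 in replicate 3. Replicate 1 exceeded all controls in 100% of them, replicate 2 in 99.4% and replicate 3 in 78.3%, and replicate 3 was the lowest of the 3 exposed animals in 96.9%. For the 30 lower models the medians were -1.51, -2.001 and -0.75, and each exposed animal lay below all controls in all 30. Within these models replicate 3 leaned in the same direction with a smaller distance. Its part in the calls favours this lean and the lack of overlap given next. Among all 12685 tested models the 3 exposed animals lay above the 3 controls in 1028 (8.1%) and below them in 2008 (15.8%), and among the called ones in 77.6% of the higher and 100% of the lower ones. Of the lower exposed animals at day 6, replicate 3 at 1 nM Hg/L, the one with the low share, had medians of 0.93 and -0.76 over the same models. The other 14 lay between -0.01 and 0.38 and between -0.25 and 0.07, all measured from the same controls.

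**Figure D3:**
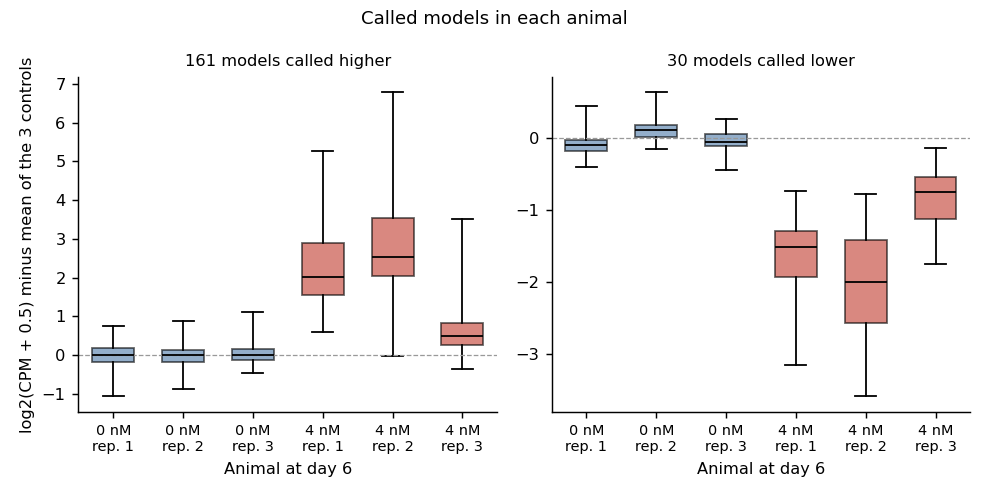
Level of each called model in each of the 6 animals relative to the control mean (y axis, log2(CPM + 0.5)), for the models called higher (left) and the 30 called lower (right); boxes span the quartiles with the median as a line, and whiskers reach the lowest and highest model. Exposed replicates 1 and 2 have medians of 2.01 and 2.54 (left) and -1.51 and -2.001 (right), and replicate 3 lies nearer to the controls at 0.50 and -0.75.

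The called models were spread over the genome and leaned to the more abundant ones. With all tested models divided into 4 equal groups by mean CPM, from lowest to highest, 11, 22, 34 and 94 of the higher models and 0, 2, 5 and 23 of the lower ones fell in each. That mean was taken over all 84 libraries, so high values in the exposed animals also raised it. Models with more counts are also easier to call. The lean may thus be partly built in, which was not tested. The higher models had a median of 5 exons and 1779 exonic bases and lay on 102 scaffolds or contigs, the lower ones 6.5 exons and 2605 bases on 29, and all tested models 5 exons and 2114 bases. Of the higher models 17 lay on contigs and 17 had a single exon, which is 1.47% of the tested models on contigs and 1.17% of those with a single exon, near the 1.27% of all tested. The median level of the higher models was 2.30 CPM in the controls and 10.5 CPM in the exposed animals, and that of the lower models 4.58 and 1.55 CPM. The longest run of neighbouring tested models called in 1 direction was of 3 models, on scaffold01685 between 306 and 8792, from APZ42_024615 to APZ42_024618, with log2 changes of 1.90 to 2.98. There were 3 further runs of 2 higher neighbours, and none of lower ones.

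This run holds 2 of the 5 most abundant models, and all 5 were called higher in the fit, with log2 changes of 1.90 (SE 0.51) for APZ42_024615, 2.75 (SE 0.61) for APZ42_024616, 3.85 (SE 0.80) for APZ42_004030, 3.04 (SE 0.70) for APZ42_003886 and 3.35 (SE 0.74) for APZ42_003885. For APZ42_024615 the direction depends on the scale: its share of all counts was lower in the exposed animals, whereas its fitted level, scaled to the bulk of the other models, was higher (edgeR adjusted p = 0.0348). That call was lost in each of the fits without 1 animal except the one without exposed replicate 3, and with replicate 3 as the only exposed animal the change was -0.36. For the other 4 models it was then 0.18 to 0.32. Their calls ended without exposed replicate 2, at edgeR adjusted p from 0.178 to 0.286, and without control replicate 2 or 3, at 0.0624 to 0.0962. In all, APZ42_003885, APZ42_003886 and APZ42_024616 lost the call in 4 of the 6 fits without 1 animal, and APZ42_004030 in 3. With the share outside as a covariate the changes of the 5 models were 0.12 to 0.50. The TMM factors behind this were 0.258, 0.123 and 1.65 in exposed replicates 1 to 3 and 1.40, 1.58 and 2.07 in the controls. CPM on that scale need not sum to the same total in each library: APZ42_004030 alone had 2709270 CPM in exposed replicate 2 and at most 115228 CPM in the controls. APZ42_016403 was also called higher, by 3.56 (SE 0.76, adjusted p = 0.00539).

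Among models averaging at least 5 CPM over the 6 libraries and with 3 or more counts in both groups, APZ42_034121 (scaffold03326, 427585 to 430369, minus strand, 10 exons) rose most. It had 25.3, 49.7 and 0.903 CPM in exposed replicates 1 to 3 and 0, 0.0331 and 0.628 CPM in the controls, with 30 counts in exposed replicate 3 and 0, 1 and 25 counts in the controls. Every exposed animal was above every control, but replicate 3 was close to control replicate 3. The average of 5 CPM was met only through exposed replicates 1 and 2. The fitted log2 change was 6.75 (SE 1.73, edgeR adjusted p = 0.0248). The call ended without exposed replicate 1 or 2 or control replicate 1 or 2, at adjusted p from 0.0574 to 0.2, while the change stayed between 5.76 and 10.1 in the 6 fits that left out 1 animal. With the share outside the 5 models as a covariate the change was 3.39 (adjusted p = 1), and with replicate 3 as the only exposed animal it was 1.97 (adjusted p = 1). The fit of only the 6 libraries gave 6.87 (adjusted p = 0.195).

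APZ42_019722 (scaffold00944, 40559 to 42062, plus strand, 6 exons) had 36.2, 104 and 5.26 CPM in the exposed animals and 0.065, 0.298 and 1.63 CPM in the controls. The groups did not overlap, and the average of 5 CPM over the 6 libraries was met only through the exposed animals. The log2 change of APZ42_019722 was 6.16 (SE 1.65, edgeR adjusted p = 0.0353). The call held in 1 of the 6 fits that left out 1 animal, the one without exposed replicate 3. It ended with the covariate (change 4.43, adjusted p = 1) and in the fit of only the 6 libraries (adjusted p = 0.182). Its neighbour APZ42_019721 was also called higher, at 4.49 on the log2 scale. Against the 15 lower exposed animals of day 6 the change of APZ42_019722 was 6.85 (SE 0.88, edgeR adjusted p = 5.6e-08). There the groups overlapped, since replicate 1 at 0.25 nM Hg/L had 7.90 CPM, above exposed replicate 3.

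APZ42_018283 (scaffold00770, 58942 to 64068, minus strand, 4 exons) had the largest fall by the same rule. It had 0.538, 0.782 and 3.79 CPM in the exposed animals, the first 2 of them from 3 and 2 counts, and 7.08, 9.93 and 9.42 CPM in the controls, from 218, 300 and 375 counts. The groups did not overlap, and replicates 1 and 2 were at or below the level of 3 counts, so their own levels are not resolved. The log2 change was -2.24 (SE 0.51, edgeR adjusted p = 0.00989), and -3.79 without exposed replicate 3. APZ42_014229 (scaffold00389, 695706 to 711330, plus strand, 7 exons) had 3.41, 1.96 and 8.18 CPM against 17.0, 18.9 and 20.1 CPM, again without overlap and with replicate 3 nearest to the controls. Its log2 change was -2.0 (SE 0.48, edgeR adjusted p = 0.0146). At day 10 the controls had 2.52, 2.41 and 2.12 CPM of APZ42_018283 and 3.35, 4.32 and 4.13 CPM of APZ42_014229, well below the controls of day 6, and the animals at 4 nM Hg/L had 5.19, 2.31 and 8.88 and 4.66, 3.31 and 5.28 CPM. Leaving out exposed replicate 1 or 2 ended both calls, at adjusted p from 0.15 to 0.309, as did leaving out control replicate 2 or 3, at 0.0599 to 0.0737. Leaving out control replicate 1 ended that of APZ42_014229 alone (adjusted p = 0.0503). The covariate ended both, at changes of -1.29 and -1.46 (adjusted p = 0.892 and 0.845), and so did the fit of only the 6 libraries (0.203 and 0.182).

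**Figure D4:**
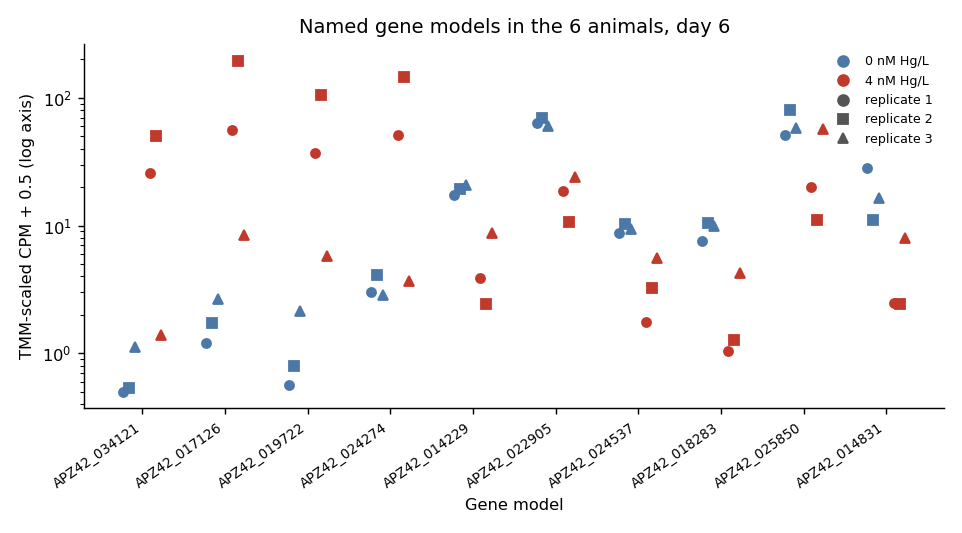
TMM-scaled CPM + 0.5 (y axis, log scale) of the 10 gene models named by rule in the 6 day 6 animals, with 0 nM Hg/L in blue and 4 nM Hg/L in red and a symbol for each replicate. In the models on the left replicates 1 and 2 at 4 nM Hg/L lie far above the controls (25.3 and 49.7 CPM for APZ42_034121 against at most 0.628), and replicate 3 lies between them and the controls or among the controls.

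Set against the 15 animals at the lower concentrations of day 6, which share no control with the comparison above but the same 3 exposed animals, 4 nM Hg/L differed in 603 of 12685 models (4.75%), 480 higher (3.78%) and the others lower (0.97%). With DESeq2 size factors it differed in 635, 574 higher and 61 lower, a larger share of higher calls. With exposed replicate 3 alone 5 models were called, all higher, and without it 1533, of which 873 were lower. Without replicate 1 there were 247, and without replicate 2 1.19% of the models tested were called. With the share outside the 5 models as a covariate 83 were called.

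APZ42_017126 (scaffold00687, 118704 to 121870, plus strand, 8 exons) was 1 of the 2 highest among the called models that averaged at least 5 CPM over the libraries compared, the other being APZ42_019722. APZ42_034121, below that average here, changed by 7.15 (SE 0.93, edgeR adjusted p = 4.3e-08). APZ42_017126 had 55.2, 196 and 7.97 CPM in the exposed animals, and from 0.25 to 3.21 CPM in the lower exposed animals other than replicate 1 at 0.25 nM Hg/L, which had 23.2 CPM. That animal therefore lay above exposed replicate 3. Here too the average of 5 CPM was met only through exposed replicates 1 and 2. The log2 change was 6.05 (SE 0.73, edgeR adjusted p = 1.6e-08), and the call held in every fit that left out 1 library but not with replicate 3 as the only exposed animal (change 2.64, adjusted p = 1). The same animal at 0.25 nM Hg/L also had the highest level of APZ42_034121 and of APZ42_019722 among the lower exposed, 5.50 and 7.90 CPM. Both values are above those of exposed replicate 3, 0.903 and 5.26 CPM. For APZ42_034121, replicate 2 at 0.06 nM Hg/L was above it too, at 1.13 CPM. At the other end, APZ42_014831 (scaffold00512, 123387 to 127155, minus strand, 2 exons) had 1.97, 1.96 and 7.52 CPM in the exposed animals and 0.603 to 44.8 CPM in the lower exposed ones. The groups overlapped, with a log2 change of -2.52 (SE 0.74, edgeR adjusted p = 0.0304). The call ended without exposed replicate 1 or 2 (adjusted p = 0.279 and 0.315), in fits of the day 6 libraries alone (0.152) or the libraries compared (0.173), without the filter (0.0504) and with the covariate (0.251). APZ42_018283 was lower in this comparison as well, with a log2 change of -2.17 (SE 0.45, edgeR adjusted p = 0.000674), not called without exposed replicate 1 or 2 (adjusted p = 0.0535 and 0.0537), and with 4.48 to 10.97 CPM in the 15 animals.

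At the later days the same dose gave no call. Between 4 nM Hg/L and 0, edgeR's quasi-likelihood test called 0 of 12685 models at day 10 (0%), where 1180 had an unadjusted p below 0.05, and 0 at day 17 (0%), where 586 had one. The models called higher at day 6 had a median log2 change of 0.13 at day 10 and 0.20 at day 17, in other animals, with 57.8% and 67.1% of them above 0, beside medians of -0.04 and -0.02 and shares of 47.6% and 48.96% over all tested models. The 30 models called lower had medians of 0.05 and -0.13.

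**Figure D5:**
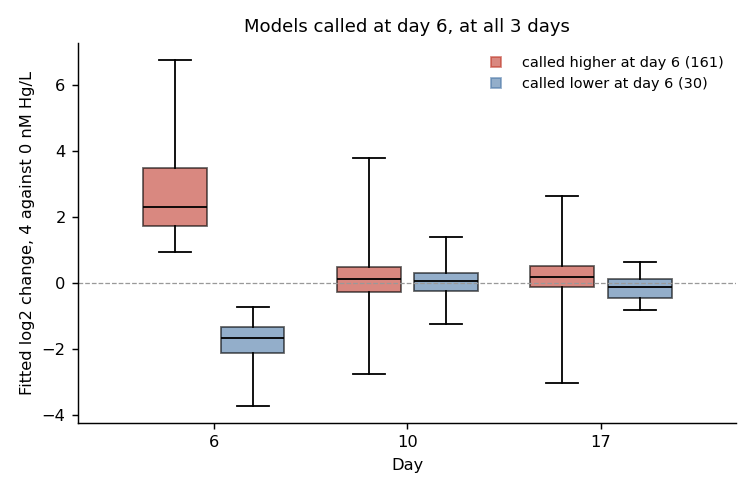
Fitted log2 change between 4 and 0 nM Hg/L (y axis) at days 6, 10 and 17 (x axis) for the models called higher and the 30 called lower at day 6; boxes span the quartiles with the median as a line, and whiskers reach the lowest and highest model. The day 6 boxes stand apart because the calls were made there; at day 10 the medians are 0.13 and 0.05 and at day 17 they are 0.20 and -0.13.

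The difference between the day 6 and the day 10 change was tested itself and was called in 30 of 12685 models (0.236%), 22 with the larger value at day 6 and 8 with the smaller one. With exposed replicate 3 of day 6 alone, 0 were called and 566 had an unadjusted p below 0.05, and without it 472 were called. Leaving out the other animals of the contrast 1 at a time gave 1 to 70. APZ42_034121, at 0.176, 0.301 and 0.225 CPM at 4 nM Hg/L and 1.12, 0 and 3.60 CPM in the controls at day 10, had a difference of 9.49 (SE 2.29, edgeR adjusted p = 0.0435). APZ42_017126 had 0.850, 1.71 and 0.506 CPM against 4.24, 0.204 and 15.9 CPM at day 10 and a difference of 8.70 (SE 1.84, edgeR adjusted p = 0.0198). In both models the exposed animals of day 10 were as low as the controls of day 6 or nearly so, and 1 or 2 controls of day 10 were higher. Of the models called with the smaller value at day 6 and averaging at least 5 CPM over the 12 libraries, the following 2 had the lowest differences. APZ42_025850 (scaffold01969, 77716 to 81313, 9 exons) had 19.7, 10.6 and 56.2 CPM at 4 nM Hg/L and 51.2, 79.6 and 58.1 CPM in the controls at day 6, where it was not called (log2 change -1.12, edgeR adjusted p = 0.134). At day 10 it had 27.4, 18.6 and 26.7 against 13.6, 8.46 and 8.97 CPM, and the difference was -2.35 (SE 0.55, edgeR adjusted p = 0.0435). APZ42_024537 (scaffold01663, 277203 to 279832, 7 exons) had a difference of -2.10 (SE 0.51, edgeR adjusted p = 0.0492), from 1.26, 2.74 and 5.08 CPM against 8.22, 9.74 and 8.87 at day 6 and 5.39, 3.41 and 6.35 against 4.56, 1.39 and 4.31 at day 10. APZ42_018283, below that average here, had a lower difference than both, -3.46 (SE 0.71, edgeR adjusted p = 0.014), from the levels given above.

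Between day 17 and day 6 the difference was called in 0 of 12685 models (0%) by edgeR, with 1000 at an unadjusted p below 0.05, in 34 by DESeq2 and in 40 by limma-voom. Without exposed replicate 3 of day 6 edgeR called 268. Among models with a mean of at least 5 CPM and 3 counts in each group, APZ42_024274 (scaffold01581, 2218386 to 2222174, 2 exons) had the lowest p in the higher direction. It had 50.9, 144 and 3.16 CPM against 2.50, 3.58 and 2.39 CPM at day 6, where it was called (log2 change 4.54, SE 0.70, edgeR adjusted p = 0.000197). Its replicate 3 lay within the control range. The day 6 call held in all 6 fits without 1 animal but ended in 3 of the 12 other settings, where the change fell to as low as 0.18. The day 17 levels were 3.86, 3.64 and 4.03 against 1.83, 3.77 and 2.58 CPM, and the difference was 4.04 (edgeR adjusted p = 0.0899), or -0.36 with exposed replicate 3 of day 6 alone. In the lower direction, by the same rule, APZ42_022905 (scaffold01361, 2441624 to 2444257, 5 exons) had the lowest p. At day 6 it had 18.1, 10.2 and 23.4 CPM against 62.7, 68.5 and 59.6 CPM, without overlap. It was called there (log2 change -1.88, SE 0.37, edgeR adjusted p = 0.0026). That call held in 5 of the 6 fits without 1 animal and ended in 3 of the 12 other settings. The difference between the days was -2.02 (edgeR adjusted p = 0.186).

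The day 6 animals were finally placed along the change from day 6 to day 10 of the 5 lower exposed concentrations, which share no animal with the comparison. Of the tested models, 943 were called lower and 1562 higher at day 10 in those animals with a change of at least 1 on the log2 scale. For the 943, the median distance of an animal from the day 6 mean of the lower exposed animals, on the log2(CPM + 0.5) scale, was -0.46, -0.74 and -0.09 in exposed replicates 1 to 3, and 0.05 to 0.09 in the controls. The lower exposed animals had -0.21 to 0.11 at day 6 and -1.15 to -0.43 at day 10. For the 1562, the exposed animals had -0.08 to -0.06 and the controls -0.08 to -0.01, beside a median of 0.90 in the lower exposed animals at day 10. All 3 exposed animals were thus below all 3 controls in the models that are lower at day 10. Replicate 3 was so by less than replicates 1 and 2, and stayed within the day 6 range of the lower exposed animals. In the models that are higher at day 10, all 3 exposed animals were beside the controls. Over all tested models the median from the control mean was -0.14, -0.35 and -0.01 in exposed replicates 1 to 3. Of the models called higher at 4 nM Hg/L, 23 belonged to the 1562 and 5 to the 943 (14.3% and 3.11%, beside 12.3% and 7.43% of all tested), and of the 30 called lower 0 and 3.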

How the data were processed

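RNA was extracted from single whole animals and depleted of ribosomal RNA, and a strand-marking kit was used for the libraries, per the labels' protocols. STAR 2.7.5b is named in the submitters' processing notes. Which program counted reads, with which strand option, and on which build and annotation is not given in the sources used here, so overlapping, antisense and near-identical models may share counts. The authors deposited whole-number counts per gene model, not normalized, with exon positions and length (an unscaled number of bases, checked against the exons). All count columns were matched to samples by name, and 0 were left over. Replicates were numbered in accession order, which pairs none. The edgeR p-values rest on the spread between animals within groups, which was estimated over all 28 groups and may be partly technical. Where the exposed animals of day 6 varied more than the other groups, this estimate may be too small for them.

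The test used edgeR 4.0.16 in R 4.3.3: models filtered by filterByExpr over 28 groups (minimum count 10; 12685 of 27350 kept), TMM scaling, 1 mean per group and the quasi-likelihood fit with robust shrinkage over 84 libraries (56 residual degrees of freedom), tested on simulated data. Each comparison is a contrast of group means, with Benjamini-Hochberg adjustment over all tested models. SE is the change divided by the square root of F. CPM use the TMM-scaled library size. Shares and numbers of detected models were compared with exact permutation tests (scipy 1.17.1). The rule for named models took the 5 most abundant and, per contrast, the 2 highest and 2 lowest called models by change with a mean of at least 5 CPM and 3 counts in each group, or, with none called, the lowest p, as well as the ends of the longest run of called neighbours. Alternatives included DESeq2 1.42.0, limma 3.58.1, DESeq2 size factors, no filter, the older fit, fewer libraries, thinned counts, the share outside the 5 models as covariate and each library left out. The limma-voom fit gave each library an estimated quality weight. Models, lists, tests and alternatives were chosen with earlier results of these data known; leaving out 4 nM Hg/L replicates 1 and 2 together, and 10 models left out for the detected numbers, were added last.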

Additional observations from a re-analysis of the deposited data

Results flagged for a closer look

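In 30 models the change between 4 nM Hg/L and 0 differed between day 6 and day 10 by edgeR's quasi-likelihood test of the difference itself. The highest differences, day 6 minus day 10 on the log2 scale, were 9.49 for APZ42_034121 and 8.70 for APZ42_017126. Among called models averaging at least 5 CPM over the 12 libraries, the lowest were -2.35 for APZ42_025850 and -2.10 for APZ42_024537. In the same order the calls ended in 8, 8, 9 and 9 of the 12 fits that left out 1 animal, among them those without exposed replicate 1 or 2 of day 6, while the sign stayed. The covariate ended all 4 (adjusted p from 0.509 to 0.711), and so did the fit of only the 12 libraries (0.239 to 0.31). No filter and the older fit ended all but that of APZ42_017126, at 0.0633 to 0.109, and thinning or removal of the 5 most abundant models ended that of APZ42_024537 (0.0574 and 0.0594). With exposed replicate 3 of day 6 alone they were 4.71, 5.29, -1.34 and -1.34 (adjusted p = 1 each). The differences of APZ42_018283, -3.46, and APZ42_024274, 3.97, were also called (edgeR adjusted p = 0.014 and 0.0328). They lost the call in 6 and 8 of the 12 fits without 1 animal, with the covariate (adjusted p = 0.195 and 0.712) and in the fit of only the 12 libraries (0.245 and 0.307), and that of APZ42_024274 also without the filter (0.0668) and in the older fit (0.0572).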

How the results depend on the processing

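Calls are given here as percent of the models each fit tested. Between 4 nM Hg/L and 0 at day 6, 1.51% became 0.509% without the filter, 2.55% without the day 24 controls, 6.04% with only the day 6 libraries, 0.0109% with only the 6 libraries, 0.00788% with the share as covariate, 9.50% with limma-voom and 0% with exposed replicate 3 alone. In counts, the 191 calls were 210 with DESeq2 size factors, 188 without the 5 models, 230 thinned and 279 with DESeq2; without 1 animal the share was 0.1147% to 8.44%. Against the lower exposed animals, 4.75% became 0.654% with the covariate, 10.99% with only day 6, 10.18% with only the libraries compared, 11.01% with limma-voom and 0.0362% with replicate 3 alone (1.193% to 11.73% without 1 library); thinning gave 665 models, 415 higher and 250 lower. For the difference from day 10, 0.236% became 0.363% with DESeq2 size factors, 0.0459% without the filter, 0.1025% with the older fit, 0.433% without the day 24 controls, 0% with the covariate, 0% with only the libraries compared, 2.13% with DESeq2, 3.94% with limma-voom and 0% with replicate 3 alone (0.00764% to 3.612%). For that from day 17, 0% became 0.0238% thinned, 0.285% with DESeq2 and 0.315% with limma-voom (0% to 2.051%), and with replicate 3 alone the difference of APZ42_024274 turned to -0.3555 (day 17) and -0.3536 (day 10), and the change of APZ42_024615 to -0.3557. The share difference ranged from -8.686 to -4.999 points without 1 animal and was -1.948 with replicate 3 alone; with the 3 or the 10 most abundant models left out it was -2.317 (exact p = 0.6) and -5.796 (exact p = 0.2). The difference in detected models ranged from -3134 to -957.9 and turned to 508.6 with replicate 3 alone. The mean position on the models lower at day 10 differed by -0.50 between exposed and controls (-0.6703 to -0.3432 without 1 animal); on those higher at day 10 it differed by -0.01518, by -0.04272 with no minimum change, and by -0.02682 to 0.007031 without 1 animal, turning without control replicate 2. The cause of these differences was not tested. The other values recomputed for single models kept their sign under each alternative run. No paired analysis was possible because replicate numbers follow accession order and the library names of the animals compared share no number. Depth outside the 5 models limits exposed replicates 1 and 2 most.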
